A study of Mus musculus with 8 samples.

Results

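The genes described here are the 36 genes of the hexosamine pathway and of mucin-type O-glycosylation, of 53801 genes counted. They were listed by the role of their product, with earlier results of these data known: 7 genes that supply UDP-GlcNAc, 4 that supply activated sialic acid, 10 polypeptide GalNAc transferases, 6 enzymes that build or branch the core sugars, and 9 that extend or cap them. All 36 had a row in the count table. The symbol St6galnac2 had a second, shorter row with 0 to 6 counts per library, and the longer gene was used.

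RNA was measured by sequencing in Paneth cells sorted from the small intestine of 4 β-catGOF; Mll1+/- mice (controls) and 4 β-catGOF; Mll1-/- mice (knockouts). Mll1 (gene symbol Kmt2a) is a histone methyltransferase, and the comparison asked how its loss altered the RNA of Paneth cells in which Wnt signalling was held high. Both groups carried Lgr5-EGFP-IRES-CreERT2, a tamoxifen-inducible Cre expressed from the Lgr5 promoter of intestinal stem cells, and both carried β-catGOF, a β-catenin allele that is stabilized when Cre deletes its exon 3. By design the groups differed in having 1 or both Mll1 alleles deleted, and no wild-type group was sequenced. Per the labels, 1 mg of tamoxifen was injected on 3 days, and cells were taken 10 d after induction. The study's general methods give an age of 4 to 6 wk at induction and both sexes. The methods paragraph on sorting names these mice without β-catGOF, whereas the labels and the legends include it. Recombination starts in Lgr5+ cells, so the Cre reaches Paneth cells only through their precursors. By immunohistochemistry, the study reported Mll1 lost from all cells of knockout crypts, Paneth cells included, when cells were sorted. With this Cre it also described a mosaic of recombined crypts and adjacent non-recombined ones. No marker of recombination is named for the sort. Viable EpCAM+ Cd24+ cells were sorted, 300 per sample, with 1 library per sample.

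Mucin-type O-glycans are sugar chains on serine and threonine. They make up much of the mass of the mucins that goblet cells secrete, and they also decorate membrane proteins of other epithelial cells. The hexosamine pathway turns fructose-6-phosphate and glutamine into UDP-GlcNAc, the donor for N-acetylglucosamine and, after epimerization, for GalNAc. GalNAc transferases place the first sugar in the Golgi. Core enzymes then add galactose or GlcNAc, and sialyl- and fucosyltransferases close the chain. Paneth cells at the crypt base secrete mainly antimicrobial proteins, and they arise from the same secretory progenitors as goblet cells.

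Libraries held between 13037832 and 14380240 counts on genes. The 36 genes together took 0.0602% to 0.0978% of them, and the 50 most abundant genes of a library took 76.4% to 88.1%. Knockout 3 stood apart. It had 19662 genes with a count against 22623 to 26074 in the other libraries, and 2.04% mitochondrial counts against 3.26% to 8.78%. Its TMM factor, which scales the library size, was 0.632 against 0.821 to 1.34 in the others. A given count in knockout 3 thus makes a higher scaled value than in the others. Values without it are given beside those it moved most. The sum of 10 Paneth cell markers was between 270578 and 541268 CPM (counts scaled to the size of the library, after TMM normalization) in controls and between 247403 and 766794 in knockouts, so the sorted cells carried the RNA of their label. Of these Paneth markers 4 were higher and 6 lower in knockouts, 0 at an unadjusted p under 0.05. The sum of 12 goblet markers overlapped between the groups, at 16371 to 30828 and 19785 to 41412 CPM. Of the 12, 7 were higher and 5 lower, and 2 (Fcgbp and Zg16, both lower) reached that limit. Ang4, also counted among the Paneth markers, made up 34.8% to 55.1% of the goblet sum, and without it the sums were 10329 to 20102 and 8883 to 22691 CPM. Spink4 was the largest part of the rest, at 7502 to 13498 CPM in controls and 6226 to 14980 CPM in knockouts. No marker of any of the 8 cell type lists was called. Enteroendocrine markers were lower in knockouts for 8 of 8 genes, 6 of them at an unadjusted p under 0.05, and their sum was at 162 to 676 CPM in controls and 19.2 to 180 CPM in knockouts. Of 6 stem cell markers 4 were lower and 2 higher, 4 of the 6 at an unadjusted p under 0.05, and their sum, 37.6% to 77.2% of it Olfm4, was at 705 to 1524 and 274 to 955 CPM. The Wnt target Axin2 was among the 2 higher, at 14.9 to 31.2 CPM in controls and 20.1 to 53.2 CPM in knockouts. Enterocyte markers were lower for 5 of 6 tested genes, 3 of the 6 at an unadjusted p under 0.05 (sums 161 to 356 and 83.9 to 253 CPM), and tuft cell markers for 5 of 5 tested, 0 at that limit (sums 120 to 344 and 59.2 to 229 CPM). Over all genes, 4.35% were higher and 2.53% lower at that limit. The part of enteroendocrine, stem, enterocyte and tuft cells in the results was not tested. Kmt2a RNA did not separate the groups either (log2 fold change -0.06, SE 0.24, adjusted p = 0.995 with edgeR), and counts over a whole gene do not show the deletion of an exon.

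The genes differed far more among themselves than between the genotypes. Levels between genes are compared as normalized CPM per kilobase of exon, averaged over the 8 libraries. C1galt1c1, which encodes Cosmc, the chaperone that core 1 synthase needs to fold, stood first at 45.6 CPM per kb. It was followed by the transferase genes Galnt7 at 16.7 and Galnt12 at 13.2, by Gfpt1 at 10.8, and by Slc35a1 at 8.89 and Cmas at 8.70. Of the 36 genes, 28 had at least 10 counts in every library. Another 6 had at most 20 counts in each library and were below the expression filter: Gfpt2, Gnpnat1, Galnt2, Gcnt4, B3gnt6 and St6galnac1. The other 30 were tested.

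**Figure D1:**
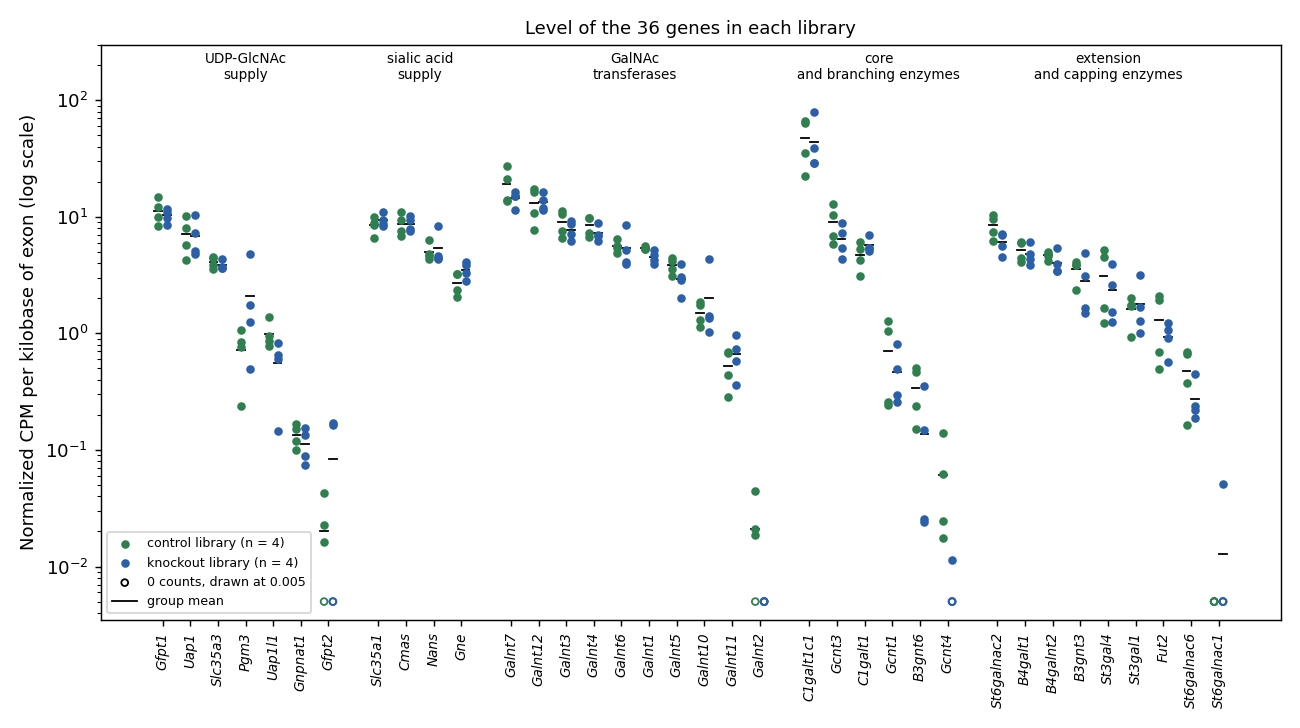
Normalized CPM per kilobase of exon (log axis) of the 36 genes, grouped by role and ordered by mean, with 1 point per library (green, 4 controls; blue, 4 knockouts), short black lines for group means and open circles at 0.005 for libraries with 0 counts. C1galt1c1 is the highest at 45.6, and St6galnac1 lies at 0 in 7 of 8 libraries.

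None of the 30 genes was called between knockouts and controls with edgeR's quasi-likelihood test, where a call needs a Benjamini-Hochberg adjusted p no larger than 0.05 and a log2 fold change no smaller than 0.5 in either direction. Over all 13439 genes tested, 0.186% were called. At a 10% false discovery rate the count was again 0 of 30, against 0.283% of all genes. The smallest adjusted p of the 30 genes was 0.67. An unadjusted p under 0.05 was reached by Pgm3 alone in the direction of higher in knockouts (4.35% of all genes) and by St6galnac2 alone in the direction of lower (2.53% of all genes). DESeq2 gave these 2 genes at an unadjusted p under 0.05, against 7.90% of all genes, and called 0. With limma-voom 6 genes, all lower and without Pgm3, reached that limit, against 5.72% of all genes in that direction, and 0 were called. The sizes of the fold changes leaned to lower values: 10 were above 0 and 20 below, with a median log2 fold change of -0.12 against 0.01 for all genes. In bulk RNA of sorted cells, fewer cells of a type and less RNA per cell cannot be told apart.

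**Figure D2:**
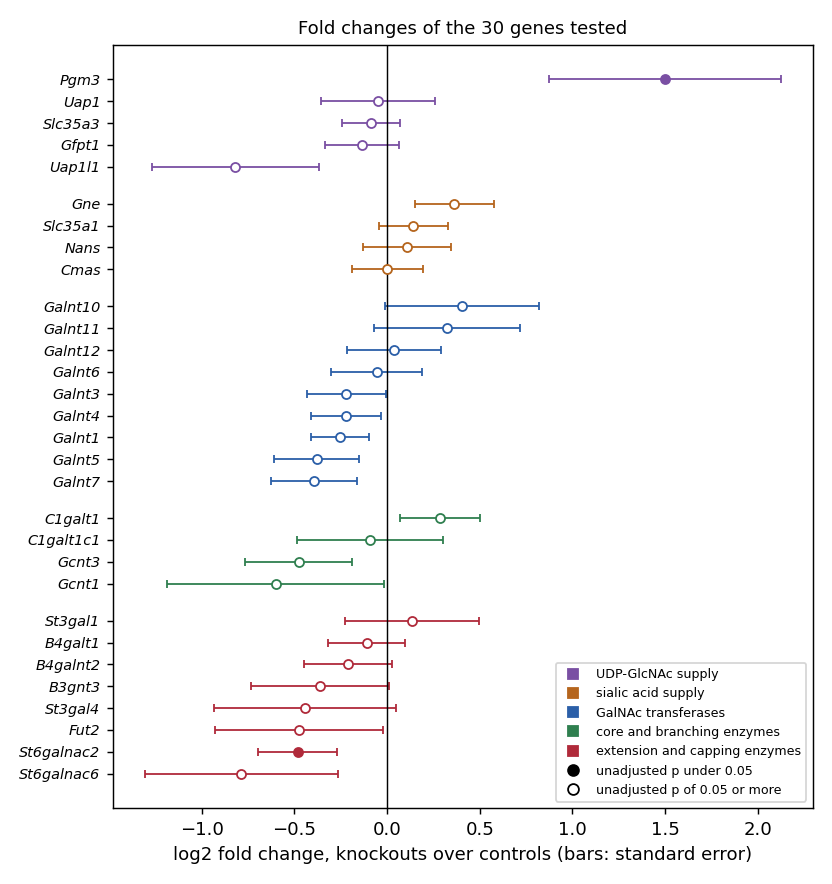
Log2 fold change of knockouts over controls from edgeR (points) with its standard error (bars) for the 30 genes tested, coloured by role; filled points have an unadjusted p under 0.05. Pgm3 at 1.50 and St6galnac2 at -0.48 are the filled points, and 7 of the 8 genes of extension and capping lie left of 0.

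Gfpt1 encodes the glutamine-fructose-6-phosphate transaminase that starts the hexosamine pathway and limits its rate. It was the highest gene of UDP-GlcNAc supply (ENSMUSG00000029992, chr6:87042846-87092197, plus strand, mm10). Gfpt1 was at 101, 84.4, 148 and 122 CPM in controls 1 to 4 and at 86.2, 119, 112 and 98.8 CPM in knockouts 1 to 4. The ranges overlapped over most of their width, with a log2 fold change of -0.13 (SE 0.20, adjusted p = 0.970 with edgeR; exact permutation test, two-sided p = 0.6). Its paralogue Gfpt2 was near absent, with at most 3 counts in 6 libraries and 16 counts each in knockouts 1 and 2.

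Pgm3, the phosphoacetylglucosamine mutase of the third step (ENSMUSG00000056131, chr9:86554377-86571842, minus strand), had the largest fold change of the 30. Pgm3 was at 1.07, 3.42, 3.78 and 4.75 CPM in controls 1 to 4 and at 2.20, 5.64, 21.6 and 7.79 CPM in knockouts 1 to 4. Knockout 3 was far above the other libraries, and knockout 1 lay inside the range of the controls. The means were 3.26 ± 1.56 and 9.30 ± 8.49 CPM (SD, n = 4 each), and the counts behind them ran from 17 to 183. The log2 fold change was 1.50 (SE 0.63, unadjusted p = 0.0343, adjusted p = 0.670 with edgeR), and the exact permutation test gave p = 0.229. Without knockout 3 it was 0.69 (SE 0.49, adjusted p = 0.650 with edgeR). With no filter on low counts, in contrast, edgeR gave Pgm3 an adjusted p of 0.00966, the 1 call among the 36 genes in any fit of the genotypes. That fit called 0.783% of 37039 genes, a larger share than with the filter. The unadjusted p with the filter was above 0.05 without control 1, 2 or 3 or knockout 3. Of its exon bases, 28.3% overlap Dop1a on the opposite strand. The Dop1a counts lay between 94 and 147.

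Uap1, which makes UDP-GlcNAc from UTP and GlcNAc-1-phosphate in the last step, had nearly equal means of 28.4 ± 10.5 CPM in controls and 27.5 ± 10.2 CPM in knockouts (SD, n = 4 each; log2 fold change -0.05, SE 0.31, and -0.31 without knockout 3). Its paralogue Uap1l1 gave the lowest fold change of the 30, -0.82 (SE 0.45, adjusted p = 0.817 with edgeR), from means of 4.05 and 2.25 CPM. Knockout 3 was its lowest library at 0.589 CPM, and without it the value was -0.54, no longer the lowest. Slc35a3, the Golgi carrier of UDP-GlcNAc, was at 44.0 CPM in controls and 41.3 CPM in knockouts. Gnpnat1, the acetyltransferase between Gfpt1 and Pgm3, was counted at only 3 to 12 per library. Of its exon bases, 81.9% overlap Styx on the opposite strand, so reads that fell on both genes may not have been assigned to either. The 7 genes thus gave 1 higher and 4 lower fold changes among 5 tested, with a median of -0.09, which ranged from -0.23 without control 2 to 0.01 without control 3.

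The promoters of Gfpt1, Pgm3 and Uap1 are shown because these genes serve 1 short pathway at different levels, 10.8, 1.40 and 6.98 CPM per kb. The windows run from 250 bases before to 50 after the annotated start (RefSeq, GRCm38.p6), at chr6:87042596-87042895 on the plus strand for Gfpt1, chr9:86571793-86572092 on the minus strand for Pgm3 and chr1:170174915-170175214 on the minus strand for Uap1. Capitals mark TGACGTG, the core of the element bound by XBP1, a transcription factor of secretory cells and of the unfolded protein response.
Gfpt1: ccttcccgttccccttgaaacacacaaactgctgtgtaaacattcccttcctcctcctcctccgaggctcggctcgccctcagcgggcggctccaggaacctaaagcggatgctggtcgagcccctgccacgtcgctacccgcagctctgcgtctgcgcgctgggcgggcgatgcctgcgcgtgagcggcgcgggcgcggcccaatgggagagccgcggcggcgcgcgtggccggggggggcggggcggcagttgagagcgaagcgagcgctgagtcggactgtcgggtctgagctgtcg
Pgm3: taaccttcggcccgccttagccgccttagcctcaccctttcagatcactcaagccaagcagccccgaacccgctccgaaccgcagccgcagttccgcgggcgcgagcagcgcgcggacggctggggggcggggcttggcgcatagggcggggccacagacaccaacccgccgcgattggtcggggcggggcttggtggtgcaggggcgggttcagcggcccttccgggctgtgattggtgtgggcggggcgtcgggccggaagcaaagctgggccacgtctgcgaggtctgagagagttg
Uap1: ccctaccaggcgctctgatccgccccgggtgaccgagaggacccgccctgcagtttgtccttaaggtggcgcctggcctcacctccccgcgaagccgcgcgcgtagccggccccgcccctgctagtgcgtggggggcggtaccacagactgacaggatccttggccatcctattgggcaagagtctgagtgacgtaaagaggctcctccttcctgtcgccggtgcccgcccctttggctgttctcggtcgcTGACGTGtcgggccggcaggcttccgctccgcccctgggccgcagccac
On either strand, TGACGTG was in the Uap1 window, at its position 252, and in no other of 28 windows found for 22 of the 36 genes, against 2.01% of 32851 mouse promoter windows. The Tcf/Lef motif CTTTGAT was in 1 of the 28 (Slc35a3; 3.73% of all). CAGCTG, the E-box of Atoh1, was in 5 of 28, those of Galnt5, Gne, C1galt1, Cmas and Gcnt4 (16.3% of all), and the Gata motif AGATAA was in 0 of 28 (11.2% of all). A match of letters is not a bound site.

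The 4 genes of sialic acid supply all had fold changes of at least 0, between 0.00 and 0.36 on the log2 scale with a median of 0.13, and none had an unadjusted p under 0.05. The median was 0.01 without knockout 3, where Nans and Cmas were below 0, and 0.04 without control 1. Slc35a1, which carries CMP-sialic acid into the Golgi, had the highest level of them per kilobase (ENSMUSG00000028293, chr4:34663257-34687438, minus strand). Slc35a1 was at 15.0, 20.1, 19.4 and 23.0 CPM in controls 1 to 4 and at 19.1, 19.8, 25.3 and 21.4 CPM in knockouts 1 to 4. Knockouts 1, 2 and 4 lay inside the control range and knockout 3 above it (log2 fold change 0.14, SE 0.19, exact permutation p = 0.429). Before scaling, knockout 3 had the lowest Slc35a1 count of all libraries, 215, against up to 351. Gne, the bifunctional enzyme that commits UDP-GlcNAc to sialic acid, gave the largest value of the 4, 0.36 (SE 0.21, adjusted p = 0.847 with edgeR), from 17.3 ± 3.97 to 22.3 ± 3.69 CPM (SD, n = 4 each). Cmas, which activates sialic acid with CMP, was at 41.0 CPM in both groups. Nans, the synthase before it, was at 22.9 and 24.8 CPM, and knockout 3 alone, at 37.9 CPM, was above all controls. The sign of Nans turned without that library, to -0.17, and 29.6% of its exon bases overlap Trim14 on the opposite strand.

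Galnt7 and Galnt12 led the GalNAc transferases. Galnt7 encodes a transferase that prefers peptides already carrying GalNAc, and it took 28.2% ± 3.11 of the summed level per kilobase of the 10 transferases in controls and 25.1% ± 5.49 in knockouts (SD, n = 4 each). Galnt12 took 19.3% ± 3.14 and 22.9% ± 2.52. Galnt3 (13.6% and 13.2%) and Galnt4 (12.8% and 12.3%) came next, and Galnt2, a broad initiating enzyme in many tissues, had at most 3 counts in any library. The Galnt2 row shares 90.0% of its exon bases with another gene on the same strand, which had 0 counts in all libraries, so reads on both may have been left out of the count. For each of Galnt7, Galnt12, Galnt3 and Galnt4, the difference between the groups' mean shares was smaller than the sum of their SDs.

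**Figure D3:**
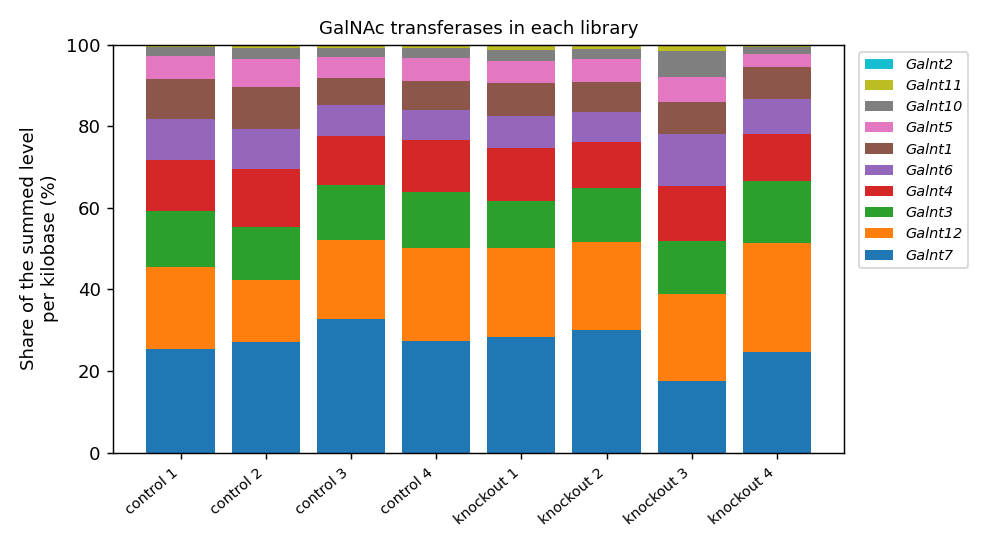
Share of each of the 10 GalNAc transferase genes in their summed normalized CPM per kilobase, in percent, as 1 stacked bar per library. Galnt7 is the largest part in most libraries, from 17.6% in knockout 3 to 32.7% in control 3, and Galnt2 is too small to be seen.

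Of the 9 transferases tested, 3 had higher and 6 lower means in knockouts, with a median of -0.22, or -0.10 without control 3, -0.13 without control 4 and -0.12 without knockout 1. Galnt1 was the 1 tested gene of the 30 whose groups did not overlap, and it was lower in knockouts, a pattern shown by 1.93% of all genes. Galnt1 was at 29.4, 29.1, 30.8 and 29.8 CPM in controls 1 to 4 and at 23.5, 21.9, 28.5 and 26.0 CPM in knockouts 1 to 4. The controls were tightly packed and the highest knockout was just below them. The difference was small, with a log2 fold change of -0.25 (SE 0.16, adjusted p = 0.853 with edgeR). Galnt1 was singled out by that separation, which is given as a description.

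Galnt7 itself (ENSMUSG00000031608, chr8:57523828-57653032, minus strand) was at 72.4, 73.1, 143 and 110 CPM in controls 1 to 4. In knockouts 1 to 4 it was at 78.6, 85.4, 60.7 and 78.9 CPM. Controls 3 and 4 were above all knockouts, and controls 1 and 2 were within them (log2 fold change -0.39, SE 0.23, adjusted p = 0.849 with edgeR; exact permutation p = 0.286). Without control 3, the highest library, the value was -0.17. Galnt5 at -0.38 (SE 0.23), Galnt4 at -0.22 (SE 0.19) and Galnt3 at -0.22 (SE 0.21) were also lower, whereas Galnt6 at -0.06 and Galnt12 at 0.04 were near 0. Without knockout 3, Galnt6 was at -0.35. Galnt10 at 0.41 (SE 0.42) and Galnt11 at 0.32 (SE 0.39) had higher means in knockouts. Galnt11 was at 0.10 without knockout 3 and 0.12 without control 1. Galnt10 rests on knockout 3, which had 25.7 CPM against 6.14 to 8.34 CPM in the other knockouts. Without that library its value was -0.26.

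C1galt1c1 made up most of the summed level of the core enzymes (ENSMUSG00000048970, chrX:38630785-38635087, minus strand). C1galt1c1 was at 32.5, 51.2, 92.9 and 95.8 CPM in controls 1 to 4 and at 41.9, 42.3, 116 and 56.1 CPM in knockouts 1 to 4. The log2 fold change was -0.09 (SE 0.39, exact permutation p = 0.886). Knockout 3 was the highest of all 8 libraries after scaling. Before scaling it had 982 counts, against 1032 and 1210 in controls 3 and 4. Without knockout 3 the log2 fold change was -0.54 (SE 0.34, adjusted p = 0.607 with edgeR). C1galt1, the core 1 synthase that depends on this chaperone, was at 28.5 ± 7.73 CPM in controls and 34.8 ± 5.32 CPM in knockouts (SD, n = 4 each; log2 fold change 0.29, SE 0.22). Per kilobase the chaperone gene was thus counted well above its client, at 45.6 against 5.20 CPM.

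Among branching enzymes, Gcnt3, which makes core 2 and core 4 structures on mucins, was the main one. Gcnt3 was at 25.1, 29.6, 55.3 and 44.3 CPM in controls 1 to 4 and at 18.5, 23.1, 38.2 and 31.2 CPM in knockouts 1 to 4. Its log2 fold change was -0.48 (SE 0.29, adjusted p = 0.851 with edgeR), and it was -0.26 without control 3 and -0.67 without knockout 3. Gcnt1, another core 2 enzyme, was at 3.95 and 2.59 CPM. The third core 2 gene, Gcnt4, had 2, 4, 1 and 9 counts in controls 1 to 4 and 0, 1, 0 and 0 in knockouts 1 to 4. In CPM its groups did not overlap, which is why its counts are given, but it lay below the filter. In counts control 3 and knockout 2 tied at 1, and only the scaling parts them (0.0900 and 0.0576 CPM). A count of 0 allows up to 3 counts, which is 0.179 to 0.353 CPM in knockouts 1, 3 and 4, against a control mean of 0.312 CPM. B3gnt6, the core 3 synthase known from colonic mucus, had 1 to 15 counts per library. Of the 4 tested genes, 1 was higher and 3 lower, with a median of -0.28, which ranged from -0.50 without knockout 3 to -0.08 without control 3.

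Of the enzymes that extend and cap the chains, 7 of 8 tested had lower means in knockouts, with a median of -0.40. Single libraries moved that median: it was -0.22 without control 1, -0.19 without control 2, -0.20 without knockout 1 and -0.24 without knockout 2. St6galnac2, which adds sialic acid in α2,6-linkage to the first GalNAc, was the highest of them per kilobase (ENSMUSG00000057286, chr11:116675303-116694868, minus strand). St6galnac2 was at 60.4, 55.8, 43.2 and 35.9 CPM in controls 1 to 4 and at 32.6, 40.8, 40.2 and 26.3 CPM in knockouts 1 to 4. Controls 1 and 2 were above all other libraries, and control 4 lay among the knockouts. The means were 48.8 ± 11.3 and 35.0 ± 6.86 CPM (SD, n = 4 each), with a log2 fold change of -0.48 (SE 0.21, unadjusted p = 0.0438, adjusted p = 0.691 with edgeR; exact permutation p = 0.114). The unadjusted p was above 0.05 without control 1 (0.139), control 2 (0.107), knockout 1 (0.0998) or knockout 4 (0.126). By contrast St6galnac1, which makes the sialyl-Tn antigen, had 0 counts in 7 libraries and 2 in knockout 4.

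**Figure D4:**
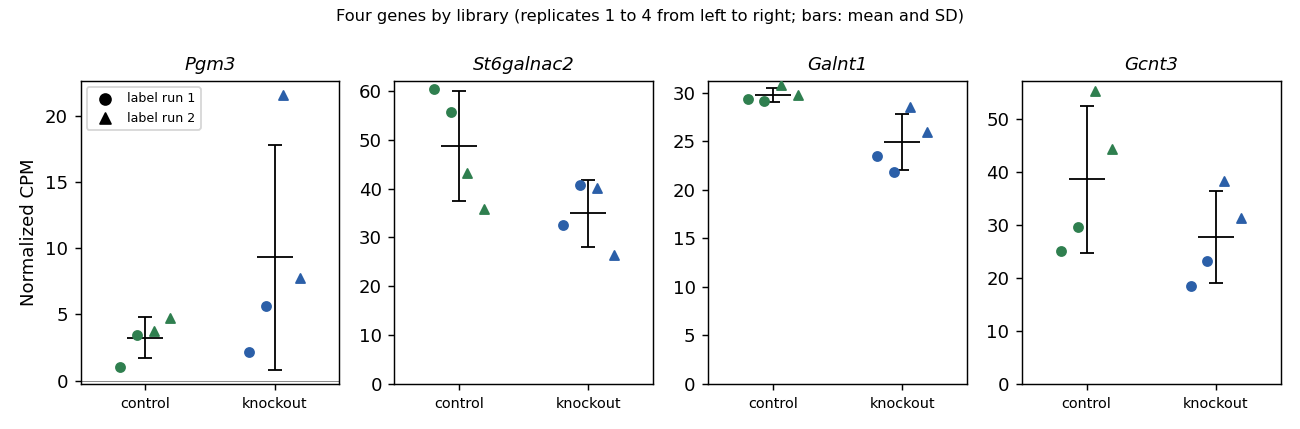
Normalized CPM (linear axes) of Pgm3, St6galnac2, Galnt1 and Gcnt3 in each library (green, controls; blue, knockouts; circles, label run 1; triangles, label run 2), with group mean and SD. The knockout mean of Pgm3 is carried by knockout 3 at 21.6 CPM, the groups of Galnt1 do not overlap, and Gcnt3 is higher in run 2 within each group.

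The other capping genes gave log2 fold changes of -0.79 (St6galnac6, SE 0.52), -0.48 (Fut2, SE 0.45), -0.44 (St3gal4, SE 0.49), -0.36 (B3gnt3, SE 0.37), -0.21 (B4galnt2, SE 0.24), -0.11 (B4galt1, SE 0.21) and 0.13 (St3gal1, SE 0.36). With libraries left out in turn, St3gal4 ranged from -0.81 (without knockout 3) to -0.10 (without control 2), Fut2 from -0.75 (without control 4) to -0.16 (without control 2), B3gnt3 from -0.77 (without knockout 3) to -0.15 (without knockout 2), and St3gal1 from -0.29 (without knockout 3) to 0.34. Fut2 makes the H antigen of secreted mucins and was at 7.12 ± 4.53 CPM in controls and 5.10 ± 1.52 CPM in knockouts (SD, n = 4 each). B4galnt2, which makes the Sda antigen of the gut, was at 8.02 ± 0.625 and 6.98 ± 1.61 CPM. St3gal4 was unevenly spread within both groups: controls 1 and 2 were at 13.1 and 15.0 CPM and controls 3 and 4 at 3.60 and 4.83 CPM, while knockouts 1 and 2 were at 3.69 and 4.43 CPM and knockouts 3 and 4 at 11.5 and 7.67 CPM.

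Knockout 3 had a clear part in these counts. Without it, 5 genes had an unadjusted p under 0.05, and all were lower in knockouts: Galnt1, Galnt5, Gcnt3, B3gnt3 and St6galnac2. The share of all genes lower at that limit was then 4.85%, and 6.48% were higher. None of the 36 genes was called, against 1.08% of all genes. Their adjusted p-values lay between 0.337 and 0.419 (edgeR), and 24 of the 30 fold changes were below 0, with a median of -0.31.

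The number in each library's description falls in 1 of 2 consecutive runs, each with 2 controls and 2 knockouts. Controls and knockouts 1 and 2 belong to run 1, and controls and knockouts 3 and 4 to run 2. The labels do not say what the numbers stand for. Animal numbers in the titles split the same way, lower in run 1 and higher in run 2. The run and the set of animals thus cannot be told apart. The run was compared after the data had been seen, in a fit with genotype in the same model. Between the runs, 12 of the 30 genes had an unadjusted p under 0.05 in the direction of higher in run 2, against 5.29% of all genes, and 3 in the direction of lower, against 4.85%. None was called (0.0967% of all genes), and the smallest adjusted p was 0.117, for Gcnt3. Without knockout 4, C1galt1c1 was called (log2 difference 1.28, SE 0.18, adjusted p = 0.0458 with edgeR), along with 0.186% of all genes. The median of the 30 was 0.38 on the log2 scale against 0.00 for all genes, and 24 were higher in run 2.

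The genes higher in run 2 came from each role. Among core enzymes the log2 differences, run 2 over run 1, were 1.10 for C1galt1c1 (SE 0.23), 0.80 for Gcnt3 (SE 0.16) and 0.43 for C1galt1 (SE 0.18). Pgm3 at 1.44 (SE 0.49), Uap1 at 0.85 (SE 0.18), Gne at 0.47 (SE 0.16) and B3gnt3 at 0.85 (SE 0.29) were others, along with Galnt3, Galnt4, Galnt6, Galnt12 and B4galt1 at 0.38 to 0.62. Fut2 at -1.19 (SE 0.32), Gcnt1 at -1.30 (SE 0.50) and St6galnac6 at -1.05 (SE 0.45) were the 3 lower in run 2.

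The runs did not overlap for 5 tested genes that were higher in run 2, Uap1, Galnt3, Galnt12, C1galt1c1 and Gcnt3, against 2.92% of all genes. Fut2 was the 1 tested gene that was lower without overlap, against 3.32%. Uap1 was at 17.2 to 23.0 CPM in run 1 and 29.4 to 41.2 CPM in run 2, Gcnt3 at 18.5 to 29.6 and 31.2 to 55.3 CPM, and Fut2 at 5.78 to 11.5 and 2.69 to 4.93 CPM. The Paneth marker sum moved with the run as well, from 270578 and 411210 CPM to 541268 and 519841 CPM in controls and from 267621 and 247403 CPM to 766794 and 335897 CPM in knockouts. Genes with a count numbered 25103 to 26074 in run 1 and 19662 to 23351 in run 2. The tuft marker sum was lower in run 2, at 301 and 344 against 165 and 120 CPM in controls and at 229 and 130 against 69.9 and 59.2 CPM in knockouts. The part of these in the values above was not tested. Without knockout 3, 16 of the genes had an unadjusted p under 0.05 between the runs, against 11.5% of all genes, and the median was 0.25.

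**Figure D5:**
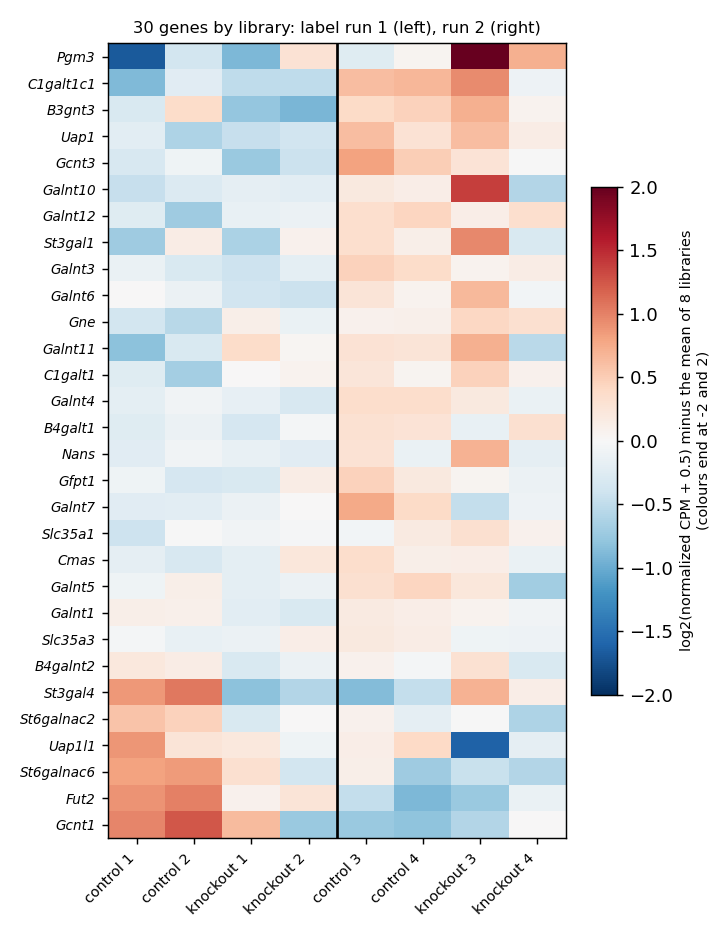
Heat map of log2(normalized CPM + 0.5) minus the mean over the 8 libraries for the 30 genes tested, with libraries of label run 1 left and of run 2 right of the black line and genes ordered by the run difference. C1galt1c1, Uap1 and Gcnt3 are red on the right in nearly all libraries, and Fut2 and Gcnt1 at the bottom are blue there.

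Because each run held both genotypes, the genotypes were also compared within each, as values without a test. Pgm3 was at 0.83 in run 1 and 1.78 in run 2 on the log2 scale, St6galnac2 at -0.66 and -0.24, Galnt1 at -0.37 and -0.14, and Gcnt3 at -0.39 and -0.50. The values come from the libraries by which Galnt1, Pgm3 and St6galnac2 were picked, so their signs are no separate evidence. Galnt7 was at 0.17 and -0.84, Gfpt1 at 0.15 and -0.35, C1galt1c1 at 0.01 and -0.12, and Slc35a1 at 0.15 in both. St3gal4 turned from -1.79 to 1.20. With the run as a block, 4 genes had an unadjusted p under 0.05 for genotype: Pgm3 (1.31), Gne (0.38), Gcnt3 (-0.46) and St6galnac2 (-0.46). In that fit 7.92% of all genes did. The smallest adjusted p of these was 0.460 with edgeR.

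Beside the 36 genes, 85 further genes of the same chemistry were read: other initiating transferases, other genes of sugar supply and salvage, other elongating, sialylating, fucosylating and sulfating genes, and mucins with further mucus and surface proteins. Of these, 57 were tested, 22 higher and 35 lower, with a median of -0.13, and 0 were called (0.186% of all genes). None had an unadjusted p under 0.05 in the direction of higher (4.35% of all genes), and 4 did in the direction of lower (2.53%). The mucin Muc2, the main substrate of the pathway in goblet cells, was at 593 ± 223 CPM in controls and 678 ± 252 CPM in knockouts (SD, n = 4 each; log2 fold change 0.19, adjusted p = 0.974 with edgeR).

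The 4 lower genes were Slc26a2, Galntl6, Fcgbp and Zg16. Fcgbp and Zg16 are also among the 12 goblet markers, of which 7 were higher and 5 lower. Slc26a2, the sulfate carrier whose sulfate is used to sulfate glycans, was at 43.4, 35.5, 25.8 and 25.2 CPM in controls 1 to 4 and at 21.6, 21.3, 11.2 and 24.4 CPM in knockouts 1 to 4, and its groups did not overlap, as for 1.93% of all genes (log2 fold change -0.72, SE 0.26, adjusted p = 0.569 with edgeR). Fcgbp, a mucus protein bound to Muc2, was at -2.24 (SE 0.62, adjusted p = 0.361 with edgeR), with control 3 at 266 CPM and the other controls at or under 87.7 CPM. Zg16, a lectin of goblet cell granules, was at -5.05 (SE 2.02) and rests on control 3 at 304 CPM, with 1.51 to 49.6 CPM in the other controls. Galntl6 was at -0.93 (SE 0.42).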

How the data were processed

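RNA of sorted Paneth cells (Smart-seq2, 4 controls and 4 knockouts) was analysed from the deposited table of raw counts. The authors aligned reads to mm10 with GSNAP and counted uniquely mapped reads per gene of Ensembl release 92 with featureCounts 1.6.3. PCR copies were counted separately, so limits from counts cover counting error only. The strand setting is not given in the sources used here, and 15 of the 36 genes share exon bases with another gene. Groups follow the genotype in the labels. The legends call the mice independent, the methods call the genotypes littermates, and 1 animal number occurs in both the title of control 4 and that of knockout 4. Relatedness was not modelled. The 92 spike-in rows were left out.

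TMM factors and quasi-likelihood fits were computed with edgeR 4.0.16 in R 4.3.3 for the genes passing filterByExpr (minimum count 10, total 15); the common biological coefficient of variation was 0.376. Single genes were tested with exact two-sided permutation tests over samples on log2(CPM + 0.5) (scipy 1.17.1), with unadjusted p-values and none printed for genes picked because their groups did not overlap. Genes described in full are those with an unadjusted p under 0.05, those with groups that do not overlap, and the highest per kilobase in each role. Gcnt3, St3gal4 and the capping genes were given further values after their values were seen. Alternatives used DESeq2 1.42.0, limma 3.58.1, other factors and filters, covariates, and each library left out. The covariates were the label run and, as a stand-in for sex, the summed level of the Y-linked genes Ddx3y, Eif2s3y, Kdm5d and Uty. Whether sex was balanced between the groups was not tested. Functions were tested on simulated data. No 2 libraries agreed within sampling noise (smallest chi-square per degree of freedom 8.71). The members and lists were chosen with earlier results of these data known.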

Additional observations from a re-analysis of the deposited data

Results flagged for a closer look

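A library was picked out where its gap to the nearest other library of its group exceeded the share of the range set by Dixon's 95% critical value. This was met in 6 of 68 groups of 4 libraries examined, where chance gives about 3.4. Knockout 3 was the high library for Nans (37.9 CPM, others 19.9 to 21.0), Galnt10 (25.7 CPM, others 6.14 to 8.34) and C1galt1 (42.8 CPM, others 31.3 to 32.7). In counts before scaling, it was the lowest knockout for Nans (322, others 337 to 352) and for C1galt1 (363, others 525 to 566). For Galnt10 it was the highest in counts as well (218, others 101 to 141). Knockout 2 was the high library for Slc35a3 (46.8 CPM, others 39.1 to 39.9) and for Gcnt4 (0.0576 CPM, which is a single count, others 0). Control 1 was the low library for B3gnt3 (7.17 CPM, other controls 11.8 to 12.6).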

How the results depend on the processing

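Over all genes, 25 were called, and 290 with no filter, 13 with at least 10 counts in every library, 138 with DESeq2, 95 with limma-voom, 10 with a Y-linked covariate and 38 at 10% false discovery rate. Leaving out each library in turn gave 10 to 152, the highest without knockout 3. Of the 36 genes, 0 were called in each fit of the genotypes except that with no filter, which called 1 (Pgm3). The count with an unadjusted p under 0.05 was 2, and 5 with no filter, 6 with limma-voom, 4 with the label run as a block, 1 with the Y-linked covariate and 0 to 5 with libraries left out. The causes were not tested. Pgm3 was at 0.47 (unadjusted p = 0.385) with limma-voom, and between 0.69 and 1.84 with libraries left out. St6galnac2 was between -0.61 and -0.36 with libraries left out, and its unadjusted p was above 0.05 in 4 of the 8 cases and was 0.0531 with the Y-linked covariate. With limma-voom the sign turned for Fut2 (0.09), Galnt10 (-0.17), St3gal1 (-0.29), Nans (-0.13), Galnt12 (-0.05) and Cmas (-0.05). With the Y-linked covariate it turned for St3gal4 (0.01) and Cmas (-0.09), and Cmas also turned with upper quartile factors (-0.04) and with at least 10 counts in every library, to just below 0. The median over the tested genes lay between -0.31 (without knockout 3) and -0.03 (without control 3) with libraries left out, and was -0.31 with limma-voom. Between 16 and 24 of 30 fold changes were below 0 in the settings that tested these 30. Leaving out 1 library moved the fold change by over 1.5 times, or turned its sign, for 26 of the 30 genes, the others being Galnt1, Gne, St6galnac2 and St6galnac6. With a library left out, C1galt1c1, Cmas, Galnt6, Galnt10, Galnt12, Gfpt1, Nans, St3gal1 and Uap1 changed sign, each without an unadjusted p under 0.05. The run comparison gave 14 or 15 genes in the other settings tried, and 10 to 17 with libraries left out, while 6.47% to 15.2% of all genes reached that limit, the most with the 17. No scaling moved the median of all genes by more than 0.1. No paired analysis was possible because the groups share only 1 number in their titles, that of control 4 and knockout 4, and the labels do not say which mice were littermates. Low counts limit Gfpt2, Gnpnat1, Galnt2, Gcnt4, B3gnt6 and St6galnac1.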
